A study of Arabidopsis thaliana with 6 samples.

Results

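Among the Arabidopsis thaliana leaf transcripts measured in a light acclimation study, 60 probe sets had lower signals on the M and H arrays than on the L array of the CV start, and higher signals on the M and H arrays than on the L array of the CL start. A start is the CV or CL in an array's code, and an ending its last letter. They were chosen from 8247 non-control probe sets, of which 4425 had a mean signal of 20 or more over the 6 arrays. The choice used x = log2(signal + 3.9). It required the mean of CVM and CVH minus CVL to be -0.7 or less, and the mean of CLM and CLH minus CLL to be 0.7 or more. Another 7 probe sets that met both conditions were left out by gene name, those of AT3G15450, LTI30, COR47 (2 probe sets), COR15B, EXPA8 and PORB. Of the 60 members, 17 were paired with 1 gene (28.3%, against 41.9% of the 4425). The other 43 had no gene listed (71.7%, against 57.2%) and are given by probe set ID.

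Total RNA from rosette leaves that were not shaded was hybridised to 6 arrays, with 1 array each for the codes CVM, CVH, CVL, CLM, CLH and CLL. All plants were of accession Ws-2 without genetic modification, at growth stage 3.90, at 60% humidity. The growth records of CVL and CLL add 16 hours of dark at 15 °C in the dark and M2 compost, which the records of CVM, CVH, CLM and CLH do not state. No label says what CV, CL, L, M or H stand for, how many plants were pooled, or when leaves were taken, so the members are described by the codes and by no light level or time.

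Leaves that meet a new irradiance adjust pigment and antenna synthesis, carbon metabolism, cell wall growth and stress protection over hours to days. Part of this adjustment runs through transcript levels. Leaf transcripts also follow the time of day, the sugar status of the leaf and temperature, and many genes respond to several of these at once. Autophagy, in which cell material is enclosed in a membrane and delivered to the vacuole for breakdown, is one process through which a leaf recycles material when carbon is short.

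The 60 members had a median change of -1.18 in CV (from -3.10 to -0.71) and of 1.11 in CL (from 0.73 to 4.01), where a change is the mean of M and H minus L on the scale of x. Over the 4425 probe sets the medians were 0.01 in CV and -0.08 in CL. These changes chose the members and are a description, with no test. In the table, 280 probe sets (6.33%) met the CV condition and 215 (4.86%) the CL condition. In the opposite directions, 234 (5.29%) were at 0.7 or more in CV and 289 (6.53%) at -0.7 or less in CL. Both conditions were met by 67 (1.51%), which is 23.9% of the 280 and 31.2% of the 215, and 58 (1.31%) had the mirror pattern, with a change of 0.7 or more in CV and of -0.7 or less in CL. Changes past 0.7 in the same direction in both starts were seen for 18 probe sets on the higher side (0.407%) and for 14 on the lower side (0.316%).

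**Figure D1:**
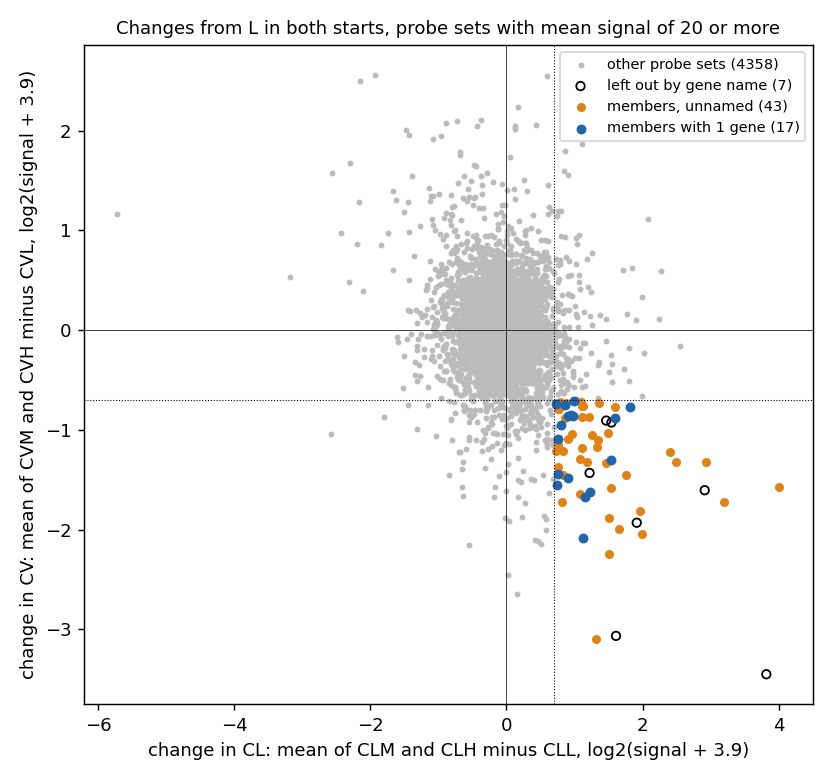
Change from L in CV (vertical axis) against the change from L in CL (horizontal axis), both as the mean of M and H minus L in log2(signal + 3.9), for the 4425 probe sets with a mean signal of 20 or more. Dotted lines mark the conditions of the choice; the 60 members lie in the lower right corner, as do the 7 probe sets left out by gene name.

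At the limits of the choice, AT2G45180 lay just inside for CL (0.73) and a probe set without a listed gene (0.69) just outside. For CV, AT1G11850 lay just inside (-0.71) and another without a listed gene (-0.69) just outside. For the mean signal, AT1G11670 lay just inside (20.4) and AT2G07140 (18.7) just outside. On either side of each limit the values lay close together.

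No code had a replicate. Median signals over all probe sets ran from 20.0 to 26.1, and with 2% of the values trimmed at either end the mean was 100.2 on each array, so the signals had been scaled to a common level. The number of arrays limits the precision. The scanner background in the labels was 56.56 in CVM and 68.77 in CVH, against 73.52 in CVL, and 64.02 in CLM and 64.52 in CLH, against 56.06 in CLL, which is the order of the members' own signals relative to L. Its part in the members' pattern was not tested. When all non-control probe sets were divided by mean signal into 5 groups of near-equal size, the group medians of the change lay between -0.00 and 0.09 in CV and between -0.12 and 0.03 in CL. The brightest group, with mean signals of 122 or more, held 35 of the 60 members. It also held 1650 of the 4425 probe sets with a mean signal of 20 or more. Groups with mean signals up to 14.5 could hold no member, as the choice required 20 or more. GAPDH signal at the 3-prime end over that at the 5-prime end, which is larger in degraded RNA, was 3.39 in CVM, 5.50 in CVH and 3.20 in CVL, and 2.81 in CLM, 6.22 in CLH and 3.76 in CLL. It was highest on both H arrays, and its part in the members' pattern was not tested. RCA, which encodes Rubisco activase and marks photosynthetic leaf tissue, had signals between 7730.6 and 10819.5 on the 6 arrays, while no gene of the root, flower and seed marker lists was measured under a name.

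**Figure D2:**
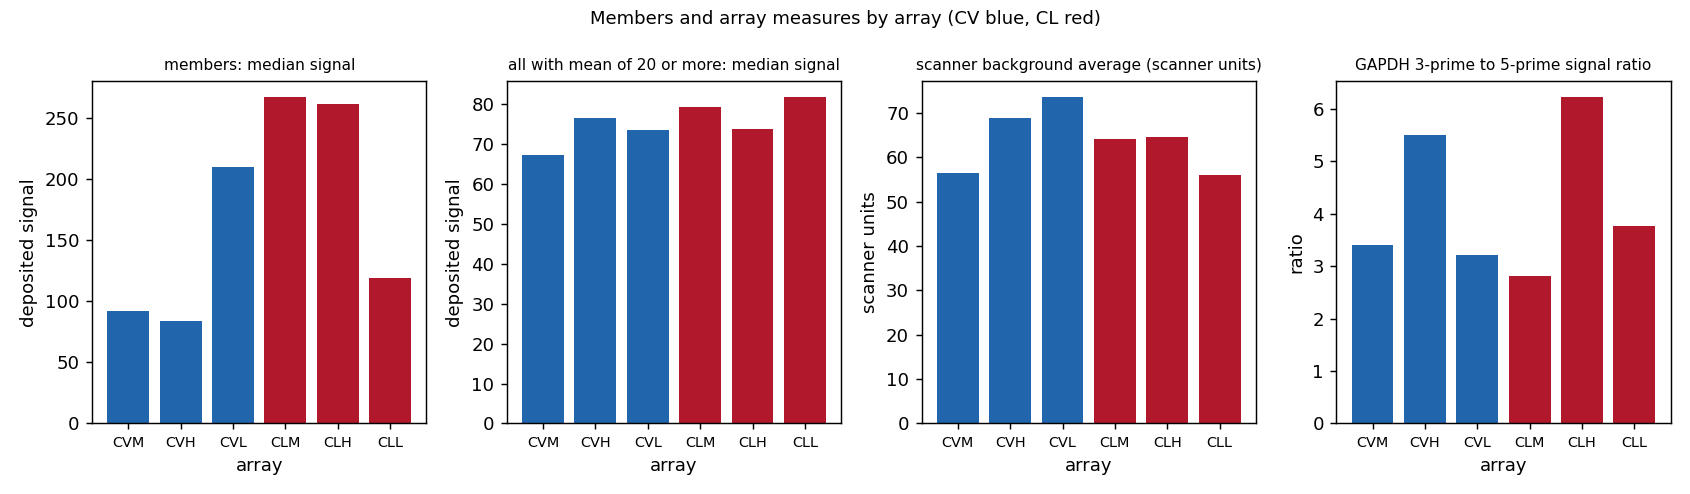
By array, from left to right: the median deposited signal of the 60 members, that of all 4425 probe sets with a mean signal of 20 or more, the scanner background average from the labels, and the GAPDH ratio of 3-prime over 5-prime signal. The members' median is 91.6 in CVM and 83.5 in CVH, against 209.3 in CVL, and 266.6 in CLM and 261.4 in CLH, against 118.5 in CLL.

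On the scale of signals, the median member had 91.6 in CVM and 83.5 in CVH, against 209.3 in CVL. In CL it had 266.6 in CLM and 261.4 in CLH, against 118.5 in CLL. The median over all 4425 probe sets stayed between 67.2 and 81.7 on the 6 arrays. In 59 members both M and H lay below L in CV and above L in CL, against 10.0% of the 4425; the choice itself used these differences. The exception was 13171_at, with 39.3 in CVM, above the 35.1 in CVL. The starts also changed places between the endings. CVL was above CLL in 57 members (39.6% of all), CVM below CLM in 58 (61.3%) and CVH below CLH in 59 (45.8%), and all 3 held together in 55 members (10.8%). These counts rest in part on the changes used in the choice, so nothing is read from their distance to the background. As the leaves were measured in bulk, fewer cells of a type and less RNA per cell cannot be told apart.

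**Figure D3:**
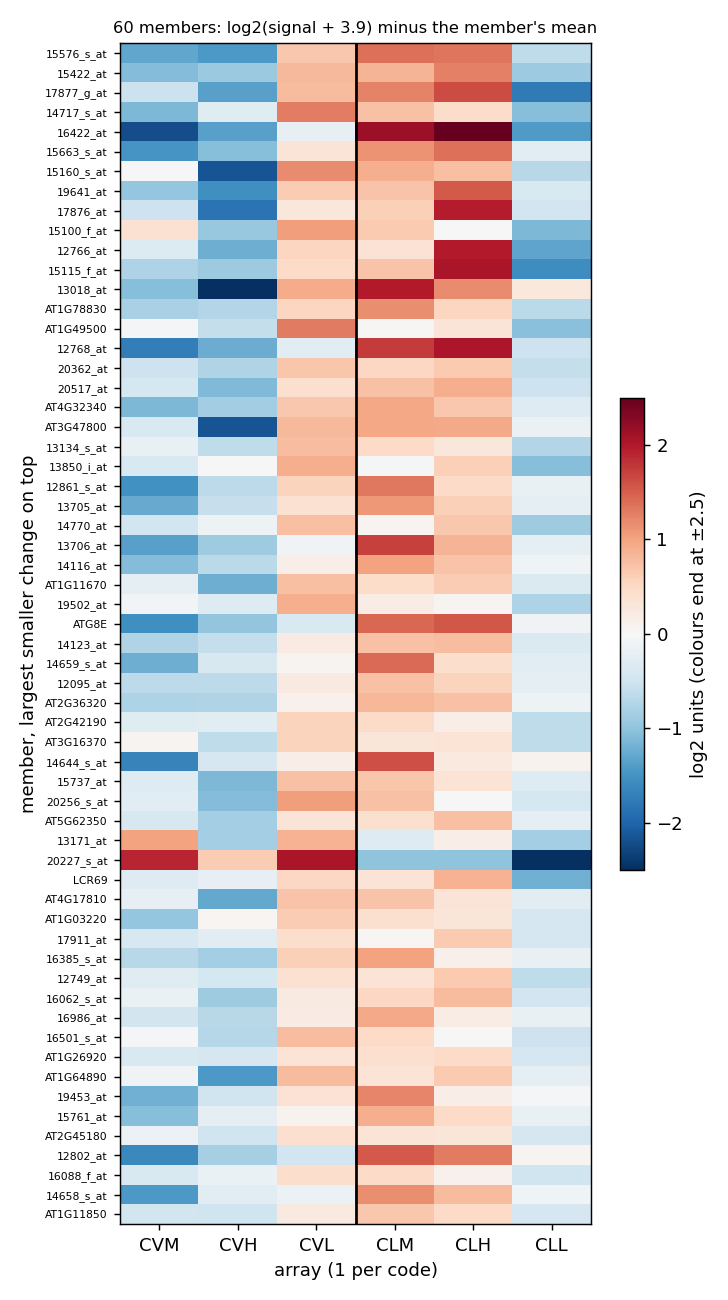
Each row is a member and each column an array; colour gives log2(signal + 3.9) minus the member's mean over the 6 arrays. Rows run from the member with the largest smaller change to the one with the smallest. CVM and CVH are blue and CVL red in most rows, with CLM and CLH red and CLL blue; 20227_s_at is red on all 3 CV arrays and blue on all 3 CL arrays.

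ATG8E encodes a ubiquitin-like protein that is joined to the membrane lipid phosphatidylethanolamine as autophagosomes form. Its signal was 51.4 in CVM and 77.8 in CVH, against 119.6 in CVL, and 432.3 in CLM and 470.1 in CLH, against 146.5 in CLL. The 3 CV arrays were below all 3 CL arrays, and CLM and CLH stood apart from the other 4. Its change was -0.88 in CV and 1.60 in CL. Of the 6 measured genes of the autophagy list, ATG8E alone met both conditions: the changes of the other 5 in CV and CL were 0.80 and -0.35 for ATG8B, 0.67 and 0.39 for ATG8D, 0.30 and 0.23 for APG8A, 0.28 and -0.17 for ATG8C, and -0.20 and 0.26 for ATG8F.

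AT1G03220 encodes a protein of the aspartyl protease family. Its signal was 16.8 in CVM and 37.9 in CVH, against 58.8 in CVL, and 49.4 in CLM and 46.4 in CLH, against 26.6 in CLL. The CVM array had the lowest signal, and the CV and CL arrays overlapped. AT3G47800 encodes a protein of the aldose 1-epimerase family, enzymes that interconvert forms of sugars. It had 16.1 in CVM and 1.9 in CVH, against 41.6 in CVL, and 47.0 in CLM and 46.3 in CLH, against 19.2 in CLL. The CVH signal lay below the offset of 3.9, so the size of the change in CV (-2.08) is uncertain, while that in CL was 1.13.

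A group of members encodes proteins of families that are mostly secreted or found in the cell wall. AT2G45180 belongs to the lipid-transfer and protease inhibitor family and had 4046.0 in CVM and 3179.6 in CVH, against 6001.1 in CVL, and 5656.8 in CLM and 5510.1 in CLH, against 3361.4 in CLL. AT5G62350, of the invertase and pectin methylesterase inhibitor family, had 1441.7 in CVM and 1055.1 in CVH, against 2380.3 in CVL, and 2529.4 in CLM and 3196.1 in CLH, against 1623.4 in CLL. CVL was the highest array for AT2G45180 and lay between CLL and CLM for AT5G62350, and CVH was the lowest array for both. AT3G16370, of the GDSL esterase and lipase family, had 690.0 in CVM and 425.6 in CVH, against 980.2 in CVL, and 815.8 in CLM and 834.5 in CLH, against 425.0 in CLL. Its CVH and CLL signals were nearly equal, and its mean over the endings differed little between CV and CL (0.00).

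LCR69 encodes a small cysteine-rich protein of the plant defensin family. Its signal was 367.2 in CVM and 396.5 in CVH, against 653.1 in CVL, and 583.9 in CLM and 840.5 in CLH, against 196.3 in CLL. With 1.82, it had the largest change in CL of the members with a named gene, and a change of -0.77 in CV. AT1G78830 belongs to the family of curculin-like, mannose-binding lectins. It had 58.0 in CVM and 61.5 in CVH, against 153.0 in CVL, and 241.0 in CLM and 153.5 in CLH, against 63.9 in CLL, so CVL equalled CLH and CLL equalled CVM and CVH within 10 signal units. Its changes were -1.30 in CV and 1.53 in CL.

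Membrane transport proteins were represented by AT1G11670, of the MATE efflux family, and AT1G64890, of the major facilitator superfamily. AT1G11670 had 14.6 in CVM and 5.5 in CVH, against 32.9 in CVL, and 26.3 in CLM and 30.1 in CLH, against 13.2 in CLL. AT1G64890 had 24.0 in CVM and 7.0 in CVH, against 47.2 in CVL, and 33.6 in CLM and 42.5 in CLH, against 21.0 in CLL. Both had their lowest signal in CVH, close enough to the offset of 3.9 to make the size of the CV change uncertain.

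Zinc finger proteins were encoded by AT2G36320, of the A20 and AN1 domain family known from stress responses, and by AT4G17810, of the C2H2 type. AT2G36320 had 110.9 in CVM and 113.1 in CVH, against 206.9 in CVL, and 342.8 in CLM and 320.7 in CLH, against 174.7 in CLL. Its M and H arrays were nearly equal within each start, with changes of -0.86 in CV and 0.91 in CL. AT4G17810 had 31.2 in CVM and 12.8 in CVH, against 62.0 in CVL, and 61.9 in CLM and 46.2 in CLH, against 29.9 in CLL. Here CVH was again the lowest array, and the CV change (-1.44) was larger in size than the CL change (0.76).

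AT4G32340 encodes a protein of the tetratricopeptide repeat family, repeats that bind other proteins. It had 179.2 in CVM and 216.0 in CVH, against 634.5 in CVL, and 782.2 in CLM and 636.3 in CLH, against 314.4 in CLL. The CVL and CLH signals were nearly equal, and its changes (-1.67 in CV and 1.16 in CL) were among the larger of the named members. For the remaining 4 named genes no role is given. AT1G49500 had 424.1 in CVM and 287.9 in CVH, against 1082.1 in CVL, and 444.5 in CLM and 545.2 in CLH, against 208.8 in CLL. It was the sole named member with a higher mean of x in CV than in CL. AT2G42190 had 59.5 in CVM and 61.2 in CVH, against 112.6 in CVL, and 106.5 in CLM and 84.8 in CLH, against 46.6 in CLL. AT1G26920 had 137.2 in CVM and 134.6 in CVH, against 230.8 in CVL, and 238.3 in CLM and 251.6 in CLH, against 133.2 in CLL. In AT1G26920 the lower 3 arrays lay within 5 signal units of each other. AT1G11850 had 33.9 in CVM and 32.7 in CVH, against 56.9 in CVL, and 78.8 in CLM and 67.9 in CLH, against 34.9 in CLL.

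**Figure D4:**
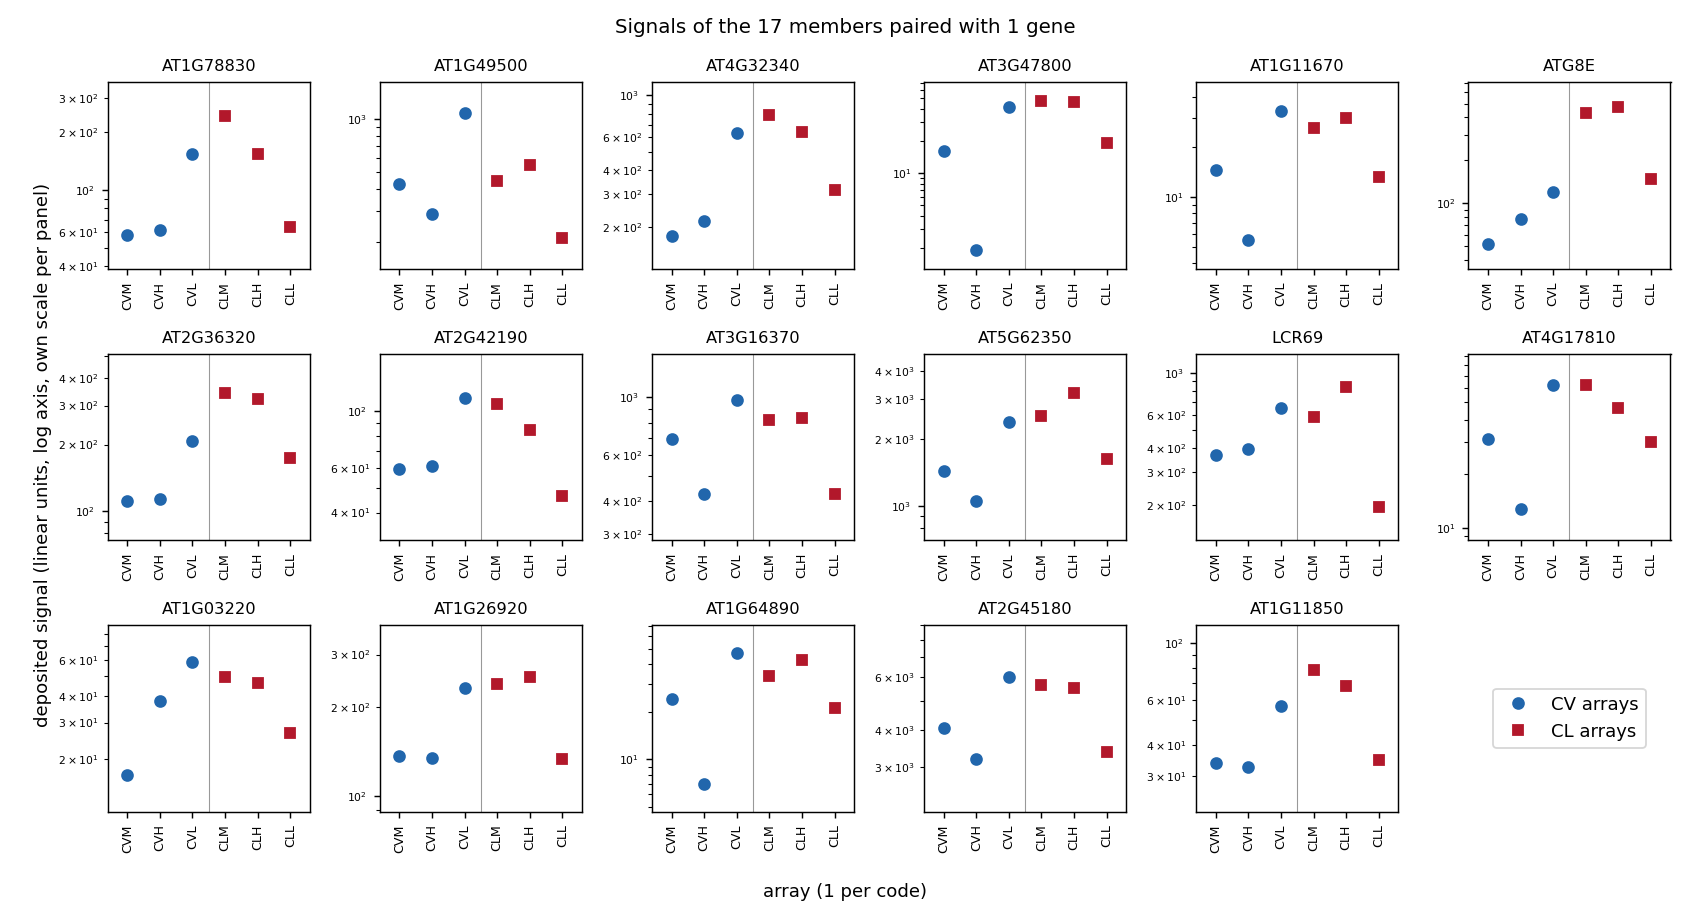
Deposited signals of the 17 members paired with 1 gene, 1 panel per gene with its own log axis; circles are the CV arrays and squares the CL arrays, with 1 array per code. In all 17 panels CVM and CVH lie below CVL, and CLM and CLH above CLL.

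The larger changes were mostly those of probe sets without a listed gene. Among the 43 unnamed members the median change was -1.21 in CV and 1.19 in CL, and among the 17 named members -0.95 and 0.95. A change of 1 or more in size in both starts was seen in 22 unnamed and 4 named members, the named ones being AT1G78830, AT1G49500, AT4G32340 and AT3G47800. The 5 members with the largest change in the start where it was smaller were all unnamed, and they are singled out here after their values were seen. The probe set 15576_s_at had 134.5 in CVM and 121.9 in CVH, against 541.9 in CVL, and 880.9 in CLM and 865.4 in CLH, against 215.5 in CLL. The order of the arrays was similar for 15422_at, with 192.0 in CVM and 213.7 in CVH, against 721.9 in CVL, and 746.5 in CLM and 983.8 in CLH, against 217.7 in CLL. In both, the lowest arrays were CVM, CVH and CLL, which were close together for 15422_at, while for 15576_s_at CLL was above CVM and CVH. For 14717_s_at the signals were 119.7 in CVM and 212.6 in CVH, against 648.6 in CVL, and 441.8 in CLM and 365.8 in CLH, against 125.0 in CLL.

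The largest change of all members in CL was that of 16422_at, with 97.9 in CVM and 179.9 in CVH, against 402.3 in CVL, and 2055.0 in CLM and 3929.3 in CLH, against 172.6 in CLL. On the scale of signal plus offset this was 16.1-fold in CL. The dim 17877_g_at had 13.1 in CVM and 5.7 in CVH, against 38.4 in CVL, and 54.3 in CLM and 71.6 in CLH, against 3.3 in CLL, a signal below the offset, so its CL change of 3.20 is uncertain in size. The neighbouring ID 17876_at was also a member, with 56.9 in CVM and 20.3 in CVH, against 101.1 in CVL, and 126.5 in CLM and 333.9 in CLH, against 58.0 in CLL. The largest change in CV was that of 13018_at (-3.10), with 48.1 in CVM and 7.2 in CVH, against 202.0 in CVL. Only 17877_g_at and AT3G47800 had a signal under 3.9 on any array.

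Of the 60 members, 22 (36.7%) had IDs with the suffix s, f, g or i. On this type of array these mark probes that can match several sequences or an incomplete probe set. Over the 4425 the share was 28.8%, which also counts other suffixes such as r. The named members with such a suffix were ATG8E, AT2G45180 and LCR69, whose signals may hold transcripts of related genes. A second probe set was available for 1 of the 17 genes, AT2G45180. It had 4617.3 in CVM and 3844.8 in CVH, against 5151.8 in CVL, and 5314.2 in CLM and 6338.3 in CLH, against 4746.1 in CLL. Its changes had the same signs and were smaller, at -0.29 in CV and 0.29 in CL.

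ATG8E and AT2G45180 are neighbours in the genome annotation, with 0 protein-coding genes between them and no overlap of their annotated extents. Next to member genes, 10 other genes were measured with 12 probe sets. None of the 12 met both conditions, although 3 had a change of -0.7 or less in CV. Of these 3, 2 belong to AT1G78820, a lectin gene beside AT1G78830, with changes of -0.94 and -0.79 in CV and of 0.59 and 0.36 in CL. Whether the probe sets of these related genes detect each other's transcripts was not tested.

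Of 16 gene lists for processes and tissues, 10 had a measured gene and 1, the autophagy list, held a member. The cold, drought and abscisic acid list had 5 measured genes, of which LTI30, COR47 and COR15B met both conditions and had been left out by name. KIN2, a cold-induced gene of the same list, had a change of 0.82 in CL but of -0.05 in CV, and STZ one of 0.60 in CV and 0.01 in CL. GI, the one measured gene of the clock list, had 529.0 in CVM and 570.4 in CVH, against 556.6 in CVL, and 608.2 in CLM and 979.1 in CLH, against 473.8 in CLL, with a change of -0.02 in CV and of 0.70 in CL, just under the limit. In the chlorophyll synthesis and cell wall lists, PORB and EXPA8 had been left out by name, and GSA1 (-0.28 in CV, -0.05 in CL) and EXPA4 (0.55, 0.04) did not meet the conditions. The measured antenna genes LHCB4.1 (0.25 in CV, 0.25 in CL) and LHCB4.3 (1.31, -1.62) did not meet them either, nor did the leaf marker RCA (0.39, 0.21), the senescence marker SAG29 (2.05, 0.44), MCCA (-0.09, -0.97) of the starvation list, whose other measured gene AT3G15450 had been left out by name, and DFR (1.54, -1.59) of the photoprotection list. MCCA and DFR had mean signals under 20. The heat shock, starch breakdown, light signalling, root, flower and seed lists had no measured gene.

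The mean of x over the endings was compared between the starts on the same 6 arrays that chose the members. It weights M, H and L alike, so that M and H together count more than L. The median CV minus CL difference of the members was -1.26 at M and -1.19 at H but 0.99 at L, so a mean below 0 came from M and H. The choice used the changes from L and not this mean. The mean is independent of those changes only where the arrays have equal and independent errors, which 1 array per code cannot show. In 52 of the 60 members the mean of x was lower in CV than in CL (86.7%, against 59.5% of the 5773 probe sets tested), with a median difference of -0.64, against -0.10 over all tested. Scaling each array to a common median moved the median of all by 0.15 to 0.05. With it 45 members were lower in CV, against 45.0% of all. After quantile normalization 48 were, against 50.9% of all. Relative to the median of all, the members' median was -0.54 with the deposited scaling, -0.53 with the common median and -0.59 after quantile normalization. The members' median depended on which endings entered it. Leaving out an array takes its whole ending out of the comparison, so either array of an ending gives the same result. The comparison then also takes in part of the changes used in the choice. Without CVH, and likewise without CLH, 32 members were lower in CV and 28 higher, against 64.4% lower among all tested. The members' median was then -0.12, against -0.17 over all. Without CVM or without CLM, 43 were lower (55.9% of all), with a median of -0.24, against -0.06 over all. Without CVL or without CLL, 58 were lower (55.4% of all), with a median of -1.32, against -0.07 over all.

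In the limma fit with start and ending as terms, 0 of the 60 members passed at a Benjamini-Hochberg adjusted p under 0.05, as did 0.0346% of all probe sets (2 of 5773). At an unadjusted p under 0.05 there were 12 members (20.0%, against 13.0% of all). Of these members 11 were lower in CV, as were 7.40% of all probe sets at this limit. The residual of this fit holds the difference between the starts in the change from L, for which the members were chosen, so their errors are large in it. A fit that gives each start its own change from L leaves 1 residual degree of freedom, the difference between the starts in H minus M. It called 20 members (33.3%), 19 of them lower in CV, against 5.01% of all probe sets (289 of 5773; 2.88% lower and 2.13% higher). As this fit takes out of the residual the changes for which the members were chosen, nothing is read from the distance between these shares. The named ones among the 20 were ATG8E (-1.93), which was lower in CV at all 3 endings, and AT2G36320 (-0.94) and AT4G32340 (-0.88), which were lower in CV at M and H and higher at L. In the additive fit the limma adjusted p of ATG8E was 0.18 (SE 0.47). Without CVL the additive fit called 38 members and 257 of the 5773 probe sets, and without CLL 39 members and 251 probe sets. An array set without 1 L array lets the changes used in the choice into the comparison, so nothing is read from these counts.

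The largest differences between the starts were those of unnamed probe sets. Lower in CV were 16422_at (-2.52), 13018_at (-2.29) and 12768_at (-2.17). The last had 105.1 in CVM, 150.0 in CVH and 297.5 in CVL, against 1209.7 in CLM, 1479.0 in CLH and 250.3 in CLL. Higher in CV were 20227_s_at (3.06, SE 0.48, limma adjusted p = 0.091 in the additive fit), 13171_at (0.68) and AT1G49500 (0.46). The signals of 20227_s_at were 2088.0 in CVM, 874.3 in CVH and 2314.6 in CVL, against 277.5 in CLM, 277.1 in CLH and 89.6 in CLL, and this was the 1 member with all CV arrays above all CL arrays (8.61% of the 4425). All CV arrays were below all CL arrays in 3 members, ATG8E, 12802_at and 14658_s_at (13.0% of the 4425). Opposite changes from L, which the choice required, make it harder for all arrays of a start to lie on one side of the other start. Nothing is therefore read from these counts.

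H and M were averaged in the choice, so their difference was not used. The members did not move together here. In CV 33 members were lower in CVH than in CVM and 27 higher (60.8% of the 4425 higher; median -0.09, against 0.14), and in CL 34 were lower in CLH than in CLM and 26 higher (43.9%; median -0.06, against -0.07). In 16 members H was below M in CV and above M in CL, further from L in both starts (26.7%, against 17.3% of all), among them 17876_at and 12766_at. In 17 members H was above M in CV and below M in CL (28.3%, against 34.3%), among them 14644_s_at, with 228.3 in CVM, 551.6 in CVH and 827.7 in CVL, and 2249.3 in CLM, 873.8 in CLH and 783.5 in CLL. H was below M in both starts in 17 members (28.3%, against 21.7%) and above M in both in 10 (16.7%, against 26.5%). Each of these counts compares single arrays and was not tested.

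Over both starts, limma called 0 members for H against M and 0 of 5773 probe sets (0.00%), and at an unadjusted p under 0.05 there were 0 members and 256 probe sets (4.43%). The fit with its own change per start also called 0 members, with 5 at an unadjusted p under 0.05 (6.11% of all), and 6 of all probe sets (0.104%; 0.0173% lower and 0.0866% higher). The fitted difference of H from M was lowest in 13018_at (-1.51, SE 0.96), 15160_s_at (-1.15, SE 0.88) and 15100_f_at (-0.99, SE 0.64), and highest in 16422_at (0.89, SE 1.15), 15115_f_at (0.59, SE 0.92) and 13850_i_at (0.52, SE 0.57). For 15160_s_at most of it came from CV, with 22.4 in CVH, against 113.2 in CVM. The GAPDH ratio, which was highest in CVH and CLH, moves with H against M, and its part in these differences was not tested.

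**Figure D5:**
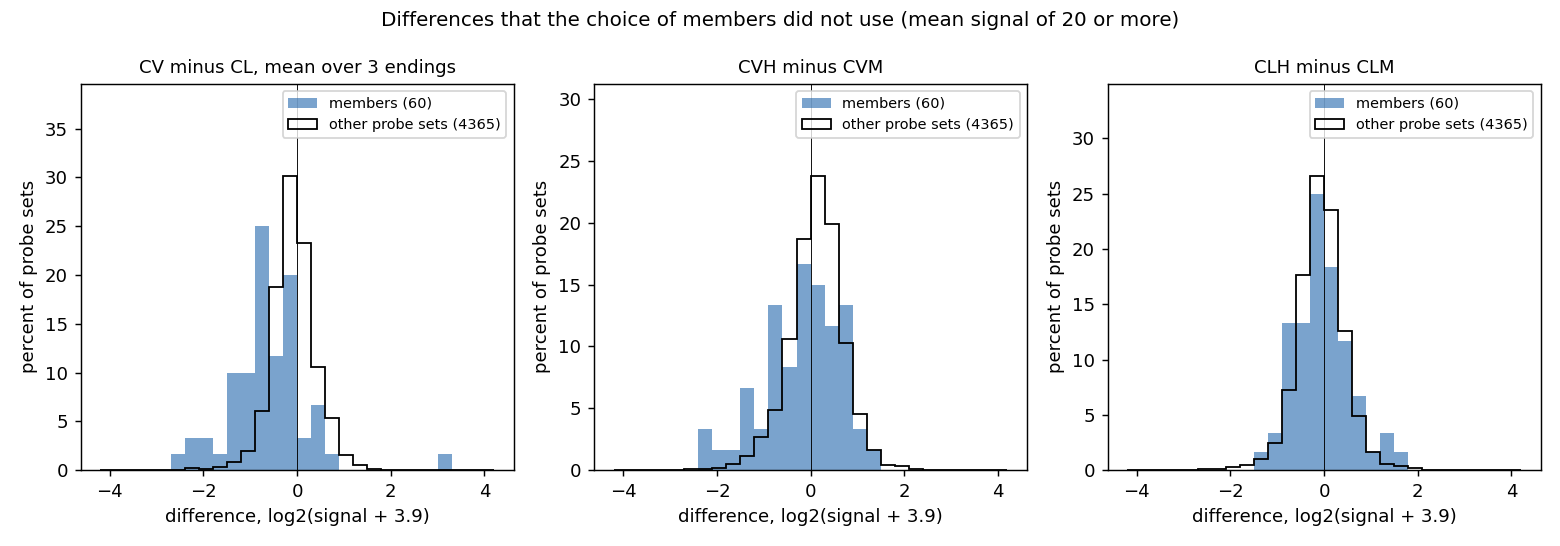
Percent of probe sets by the difference in log2(signal + 3.9), for the 60 members (filled) and the other probe sets with a mean signal of 20 or more (line), for CV minus CL over the 3 endings, CVH minus CVM, and CLH minus CLM. For CV minus CL 52 of 60 members lie below 0, against 59.5% of the 5773 probe sets tested. Without CVH or without CLH 32 members do, against 64.4%. In the other panels the members spread to both sides of 0.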

How the data were processed

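Biotin-labelled total RNA of 6 leaf samples was hybridised to single-channel arrays with 8297 probe sets. The authors deposited linear intensity values that, judged by their level, had been scaled to a common trimmed mean per array; the labels and headers do not name the software. Codes were taken from the source names, with 1 array per code. Intensities were analysed as log2(intensity + 3.9), where 3.9 is the 20th percentile of the deposited values. Control probe sets (50) were left out, and for the fits also the dimmest 30% of the rest, leaving 5773. An additive model of start and ending (2 residual degrees of freedom) was run through lmFit and eBayes with an intensity trend in limma 3.58.1 under R 4.3.3, and tested on simulated data. Nothing says that arrays came from separately grown plants. With 1 array per code, no fit holds a spread between replicates. The p-values rest on the residual, here differences between the starts in their changes between endings, which may be biological or technical. Alternatives were other offsets, scalings, filters and terms, and leaving out arrays.

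Gene names come from GEO's platform annotation with symbols of TAIR10.1. Of the probe sets, 3794 had 1 gene, 70 several and 4383 none listed. All members with 1 gene are named, with lists of autophagy, cold, starvation, clock, cell wall, chlorophyll, antenna, photoprotection, heat shock, starch, light signalling and tissue marker genes. The members and lists were chosen with earlier results of these data known. The planned promoter motifs and annotation keywords were not used here.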

Additional observations from a re-analysis of the deposited data

How the results depend on the processing

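The number of members was 60 as chosen and between 46 and 77 with offsets of 1 or 16, other scalings or a minimum mean of 10 or 40. It was 112 at a threshold of 0.5, 26 at a threshold of 1 and 33 when M and H each had to pass; with the M arrays alone it was 96, of which 48 were among the 60, and with the H arrays alone 55, of which 44 were (both chosen after the data were seen). The median change in CV (-1.18) was -1.21 with an offset of 1, -1.0 with an offset of 16 and -1.13 after quantile normalization; that in CL (1.11) was 1.21 after quantile normalization and 1.21 with a common median. With CVM or CVH left out the CV median was -1.21 or -1.15, and with CLM or CLH left out the CL median was 1.02 or 1.14. For the 34 changes of named members, 171 of 204 alternative values moved by less than the spread between M and H, 33 by more, and 0 changed sign. Leaving out M or H moves a value by less than this spread by construction. It could not change a sign either, nor could another offset, as M and H lay on the same side of L in all 17 named members. Nothing is therefore read from these counts.

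For CV against CL, the count over all probe sets (2) was 0 with a common median, 0 without the intensity trend and 289 in the fit with its own change per start, and between 1 and 257 with 1 array left out; among members (0) it was 20 in that fit and between 0 and 39 with 1 array left out. For H against M, the count over all (0) was 6 in that fit and between 0 and 10 with 1 array left out, and among members between 0 and 1. Fits with 1 array left out, or with the change per start, have 1 residual degree of freedom and lean on the variance prior. The difference between the starts in the change from L was not tested for the members, since they were chosen on it.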
